A study of Mus musculus with 6 samples.

Results

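In murine LSCs, 1511 of 112672 regions of accessible chromatin had their midpoint in the coding sequence of a protein-coding gene, more than 5 kb from every protein-coding start and more than 1 kb from the start of any other gene. They were found by merging the peaks of 6 ATAC-seq lists on chromosomes 1 to 19 and X and placing each merged region on the GENCODE M21 basic annotation of GRCm38, with every transcript start counted as a start. Membership rests on position, and on a peak call in at least 1 list, so 298, 95 and 82 regions entered through 1, 2 or 3 MMF lists with no Control list. The same distance rule left 39739 regions in introns, 34243 between genes, 1521 in untranslated exons and 5227 in other genes, and 30431 regions lay near a start.

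The cells were L-GMPs, leukemic granulocyte-macrophage progenitors with stem cell activity, from an AML that arises in mice after retroviral transfer of the MLL-AF9 fusion into hematopoietic stem and progenitor cells. All 6 samples carried MLL-AF9, were labelled WT in genotype and were kept in culture with IL3. The 3 Control samples received no MMF according to their labels, and the 3 MMF samples were exposed to mycophenolate mofetil, for 24 h by the labels and methods although a legend of the study gives another time, which blocks IMPDH and with it the synthesis of guanine nucleotides. The age of the donor mice, the number of leukemias behind the samples and a vehicle for the Control samples are not given in the labels, so the p-values below measure the spread between samples, which may be technical. The methods of the study name C57BL/6J mice of both sexes, with an age range, for murine AML. They give DMSO as the default solvent of the compounds, but do not state whether the Control samples for ATAC-seq received it. The comparison asks how accessibility differs between MMF-treated and untreated LSCs.

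A coding exon carries codons, and it can also hold binding sites for transcription factors, because these factors read DNA whatever else it encodes. Exons tend to be richer in G and C than the introns around them, and they hold nucleosomes that ATAC-seq reads as closed unless the site is opened. ATAC-seq uses the transposase Tn5, which cuts and tags open DNA, so a peak marks an open stretch and does not name the factor bound there.

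The lists held 58403 to 63802 peaks in Control and 80774 to 86437 in MMF samples. The level of a peak is given as scaled summit reads. These are the reads at its highest point, solved from the deposited fold enrichment and p-value, divided by the reads expected over 150 bp of the genome in that library. That expected number was between 0.620 and 0.909 reads, so 1 scaled unit is less than 1 read. Over the 477 coding exon regions with a peak in every list, the median summit held 14 to 18 reads in Control and 20 to 27 in MMF libraries, and the weakest held 4 to 6 reads. Promoters of 7 of 12 L-GMP genes, among them Kit, Hoxa9, Meis1, Spi1 and Cebpa, had a peak in all 6 lists, and the promoter of Mpo had none. The summed level of these 12 promoters was 517 to 527 in Control and 568 to 615 in MMF samples, with a promoter that had no peak in a list counted as 0 there. Its members went both ways, since Itgam stood at 31.8 to 45.3 in Control and 62.3 to 71.0 in MMF, whereas Hoxa9 stood at 63.1 to 69.5 and 48.4 to 53.8 and Cebpa at 132 to 145 and 96.2 to 122. Of 14 genes of other lineages, 6 had no promoter peak in any list. Among them were the T cell genes Cd3e and Cd3d, the B cell genes Cd79a and Ms4a1, and the endothelial gene Cdh5. A peak in every list was found at 5, which were Klf1, Pecam1, Itga2b, Pf4 and Epcam. Klf1 stood at 106 to 132 in Control and 105 to 114 in MMF samples, above Hoxa9 in each sample. Pecam1 stood at 56.5 to 76.7 and 51.7 to 82.8, and Itga2b, Pf4 and Epcam stood lower in every list. The summed level of the 14 promoters, counted in the same way, was 229 to 268 in Control and 237 to 257 in MMF. The part of other cell types in the results was not tested.

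To show what such regions look like, 7 windows were chosen, each 150 bp long and centred on the summit, 2 each from the regions called higher and lower with MMF, and 1 each from the highest, gained and lost regions. They are read 5′ to 3′ on the plus strand of GRCm38, capitals mark coding bases, and windows with bases of untranslated exons or from a chromosome not shown here were passed over.
Crybg2, chr4:134082080-134082229: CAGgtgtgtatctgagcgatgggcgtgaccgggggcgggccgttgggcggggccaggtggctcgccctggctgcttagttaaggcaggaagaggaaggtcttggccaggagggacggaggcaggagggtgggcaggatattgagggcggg
Heatr1, chr13:12408799-12408948: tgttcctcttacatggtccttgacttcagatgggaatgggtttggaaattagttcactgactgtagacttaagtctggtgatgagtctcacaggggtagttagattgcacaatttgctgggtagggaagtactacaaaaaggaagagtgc
Gnat2, chr3:108099890-108100039: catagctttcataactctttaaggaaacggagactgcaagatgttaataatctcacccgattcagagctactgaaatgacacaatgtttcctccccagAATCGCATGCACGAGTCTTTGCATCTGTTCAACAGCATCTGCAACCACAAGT
Akap13, chr7:75586147-75586296: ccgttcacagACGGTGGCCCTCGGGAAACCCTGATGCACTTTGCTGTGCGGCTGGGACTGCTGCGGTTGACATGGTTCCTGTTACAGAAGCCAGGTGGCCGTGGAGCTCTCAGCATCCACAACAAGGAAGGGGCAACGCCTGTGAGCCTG
Pcnt, chr10:76355069-76355218: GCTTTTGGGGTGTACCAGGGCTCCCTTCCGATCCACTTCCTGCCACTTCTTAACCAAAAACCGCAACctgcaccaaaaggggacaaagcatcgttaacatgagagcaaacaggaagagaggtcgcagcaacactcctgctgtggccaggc
Atp8b4, chr2:126330825-126330974: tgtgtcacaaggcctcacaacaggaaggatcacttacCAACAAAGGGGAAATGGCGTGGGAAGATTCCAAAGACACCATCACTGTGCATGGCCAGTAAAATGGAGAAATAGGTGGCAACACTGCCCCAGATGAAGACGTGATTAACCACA
Fam129a, chr1:151717650-151717799: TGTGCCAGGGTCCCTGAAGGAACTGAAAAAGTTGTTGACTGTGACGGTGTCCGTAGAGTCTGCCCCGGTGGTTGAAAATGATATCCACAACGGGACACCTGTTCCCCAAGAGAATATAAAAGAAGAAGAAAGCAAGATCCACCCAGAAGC
The windows differ in how much of the summit is coding, from 0 of 150 bases at Heatr1 to all 150 at Fam129a. They also differ in base composition, with 67.3% G and C and 9 CpG dinucleotides in the Crybg2 window against 43.3% and 0 in the Heatr1 window. A C/EBP match, TTGCACAA, lies 33 bp from the summit in the Heatr1 window, and a RUNX match, AACCACA, lies in the coding part of the Gnat2 window.

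The regions were small and sat across exon edges. Their median width was 297 bp (from 150 to 1711 bp), close to the 285 bp of intron regions, while the coding exon at the midpoint had a median of 177 bp. Of the 1511 regions, 813 (53.8%) covered the coding part of the exon from end to end, 247 (16.3%) lay wholly inside it and 451 (29.8%) crossed 1 edge. A median of 58.3% of the bases of a region was coding, and the summit itself fell on coding sequence in 1142 regions (75.6%). The exons were of ordinary length, since the median over all 148354 coding exons that meet the distance rule, weighted by their bases, was 175 bp.

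Internal coding exons held 1162 of the regions, last coding exons 277, first coding exons 40 and the only coding exon of a gene 32. A window was called CpG-rich when its 200 bp around the summit had an observed-to-expected CpG ratio of at least 0.6 and at least 50% G and C, and this held for 32.5% of the regions in last and 50% of those in only coding exons against 11.4% in internal ones. These shares are descriptions, because regions of a gene share their sequence context.

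The regions were spread over 1352 genes, of which 1215 held 1 region and 137 held 2 or more. Syne1, which encodes the nuclear envelope spectrin nesprin-1 in 146 exons, held 5 regions, the most of any gene. Grin2c, a subunit of NMDA-type glutamate receptors, held 4, and 15 genes held 3, among them the A-kinase anchors Akap9, Akap12 and Akap13 and Kmt2a, the gene that is fused in MLL leukemia. In Syne1 the region over exon 99 had 42.5, 44.9 and 45.2 scaled summit reads in Control and 63.8, 63.7 and 60.7 in MMF samples, whereas the region over exon 58 was held by 1 MMF list at 11.8. The 4 regions of Grin2c were weak, at most 14.2 in any list, and 3 of them, side by side in the last exon, were held by 1 list each.

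The annotation decides how far from a start a region is. The basic annotation leaves out many short or partial transcripts, and when every transcript of the comprehensive GENCODE M21 annotation was counted, 869 regions met the rule. A protein-coding start of that annotation lay within 1 kb of 299 of the 1511 regions (19.8%) and within 5 kb of 651 (43.1%). Of the 50 regions of highest level 21 had such a start within 1 kb, and of the 10 highest 8 had one. Both annotations are reported below where the difference moves a result.

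Peaks were denser in coding exons than in introns in every sample. Control samples had 33.1 ± 1.73 coding exon peaks per Mb (SD, n = 3) over 23.4 Mb of coding sequence that meets the rule, and 23.0 ± 1.24 intron peaks per Mb over 829 Mb. MMF samples had 45.3 ± 1.28 and 34.1 ± 1.49 (SD, n = 3). The log2 ratio of the densities was 0.49, 0.56 and 0.52 in Control and 0.40, 0.40 and 0.44 in MMF samples, above 0 in 6 of 6 samples (mean 0.47 ± 0.07, SD; exact sign-flip permutation test over samples, two-sided, p = 0.0312, the smallest that 6 samples allow). The ratio was lower in each MMF sample than in each Control sample, by 0.11 on the log2 scale (two-sided exact permutation p = 0.1, and 3 samples against 3 allow none smaller). Against the sequence between genes the log2 ratio was 1.32 ± 0.05 (SD over 6 samples), again above 0 in 6 of 6 (sign-flip permutation p = 0.0312). Untranslated exons under the same rule stood near coding exons, at 29.7 ± 1.81 peaks per Mb in Control and 44.8 ± 1.52 in MMF (SD, n = 3 each). A density above that of introns was thus not particular to coding exons.

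**Figure D1:**
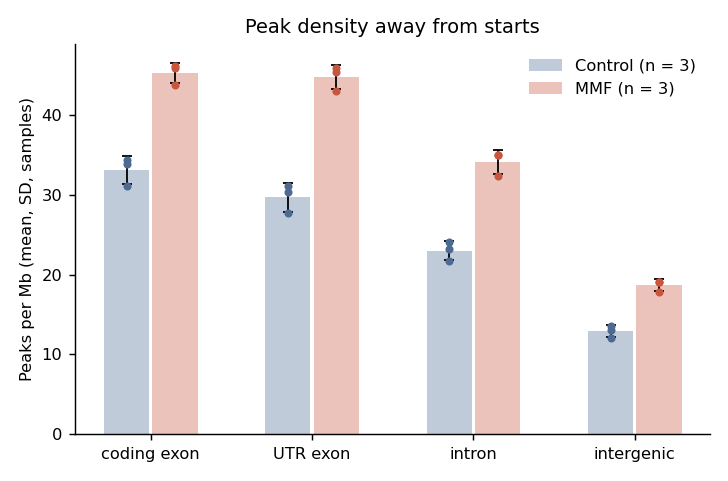
Peaks per Mb (y axis) of the bases of each class that lie more than 5 kb from a protein-coding start and more than 1 kb from any other start, for coding exons, untranslated exons, introns and the sequence between genes. Bars are means with SD and points are samples (Control blue, MMF red, n = 3 each). Coding exons stood at 33.1 peaks per Mb in Control and 45.3 in MMF, above introns at 23.0 and 34.1. Untranslated exons stood at 29.7 and 44.8.

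Coding exons held 1.24%, 1.30% and 1.25% of the peaks in Control and 1.25%, 1.25% and 1.27% in MMF samples, and the groups overlapped (difference −0.0053 percentage points, exact permutation test, two-sided, p = 1). The direction of so small a difference turned with the annotation and with the samples used. Over the same lists the share of intron peaks was 31.1% ± 0.29 in Control and 33.5% ± 0.22 in MMF, and that of peaks near a start 34.5% ± 0.68 and 30.2% ± 0.31 (SD, n = 3 each), without overlap between the groups (exact permutation p = 0.1 for each). In number, coding exon peaks were 776 ± 40.5 a list in Control and 1063 ± 30.1 in MMF (SD, n = 3 each, exact permutation p = 0.1), without overlap.

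Levels of coding exon and intron peaks were close. The median level was 16.5, 17.4 and 17.7 scaled summit reads in Control and 18.7, 19.8 and 19.2 in MMF samples. Minus the median of intron peaks on the log2 scale, it was 0 in all 3 Control samples, where both medians were equal, and 0.09, 0.11 and 0.12 in the MMF samples (mean 0.05 ± 0.06, SD over 6 samples; exact sign-flip permutation test, two-sided, p = 0.25). The mean in place of the median differed by 0.03 ± 0.02 (SD), above 0 in 6 of 6 samples (sign-flip permutation p = 0.0312). Divided by the local background of each peak instead, the difference turned to −0.04 (sign-flip permutation p = 0.125).

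Most coding exon regions were weak and were called in part of the lists. A peak was present in all 6 lists at 477 of the 1511 regions (31.6%), against 36.5% of all regions, and in 1 list only at 417 (27.6%), against 23.6%. The regions in 1 list had a median level of 9.92 scaled summit reads, and those in all 6 lists 26.2. More MMF than Control lists held 730 regions (48.3%), against 46.9% of all regions, and more Control than MMF lists held 199 (13.2%), against 10.6%.

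**Figure D2:**
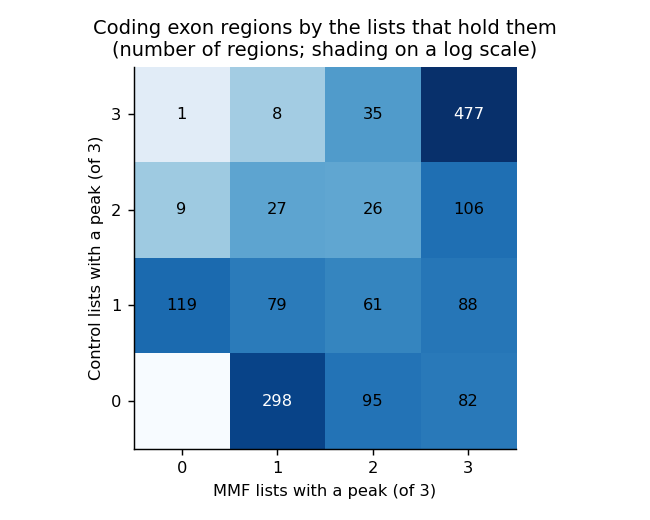
Number of coding exon regions by the count of MMF lists (x axis) and Control lists (y axis) that hold a peak there, with darker cells for more regions on a log scale. The bottom right cell holds the 82 regions in all 3 MMF and no Control list, and the top left cell the 1 region in all 3 Control and no MMF list.

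By presence, 82 regions (5.43%) were gained, with a peak in all MMF lists and no Control list, and 1 (0.0662%) was lost. Over all 112672 regions the shares were 6.01% and 0.182%, so the shares among coding exon regions lay near or below the background. The longer MMF lists enter these counts. When each list was cut to its 58403 peaks of lowest p, gains numbered 24 and losses 15, beside 2.36% and 1.37% of all 85720 regions found that way.

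The gained regions of highest level lay in genes of varied function. At Klhdc4, which encodes a Kelch-repeat protein, a region over the last of 12 exons (chr8:121796441-121796717) had 52.8, 38.2 and 31.1 scaled summit reads in the MMF samples, with a start of the comprehensive annotation 849 bp away. At Atp8b4, a flippase that moves phospholipids between membrane leaflets, the region over exon 26 of 28 (chr2:126330750-126331236) had 34.1, 42.5 and 44.4. At Dapk3, a kinase of the death-associated protein kinase family, the region over exon 3 of 9 had 33.0, 34.0 and 37.0, with such a start 252 bp away. Dip2b (24.2, 24.1 and 26.6) and Ubxn8 (15.4, 28.3 and 29.6) followed. The promoters of these 5 genes had peaks in all 6 lists. The lost region lay in the last exon of Fam129a (chr1:151717617-151717913), whose product is an apoptosis and stress-response regulator also called Niban, and had 23.3, 11.6 and 11.3 scaled summit reads in the Control samples, or 17, 8 and 7 reads.

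At the highest coding exon regions the groups mostly overlapped. Crybg2, a crystallin-fold protein (145, 130 and 123 scaled summit reads in Control, 114, 112 and 141 in MMF), and Ppcdc, an enzyme of coenzyme A synthesis (110, 120 and 135 against 120, 125 and 130), were among the 3 highest. The Control and MMF samples overlapped at both. Il17ra, the receptor of interleukin 17, Mindy1, a deubiquitinase, Msra, which repairs oxidized methionine, Zfp771, Celsr3 and Kank3 followed, with group means from 103 to 130. None of these 8 was called by limma, with log2 differences from −0.21 to 0.24. After each sample was centred on its own median, described below, 6 of the 8 were called lower, all but Il17ra and Mindy1. In 7 of the 10 highest regions the summit lay outside coding sequence, and starts of the comprehensive annotation stood 233 bp from the midpoint at Crybg2 and 136 bp at Ppcdc.

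The exception among the 10 was Piezo1, a mechanically gated cation channel. Its region over exon 43 of 51 (chr8:122484621-122485515) had 83.7, 95.5 and 87.1 scaled summit reads in Control and 119, 137 and 124 in MMF samples, without overlap (log2 difference 0.51, SE 0.13, limma adjusted p = 0.00155), a call that the median-centred scaling did not keep (adjusted p = 0.342). A start of the comprehensive annotation lay 288 bp from its midpoint. The window around its summit held the C/EBP, PU.1 and KLF letters.

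Across the 477 regions with a peak in all 6 lists, limma on log2 scaled summit reads called 115 higher with MMF (24.1%) and 4 lower (0.839%), at a Benjamini-Hochberg adjusted p of 0.05 over all 41123 such regions of the genome. Over those 41123 regions 21.8% were called higher and 3.08% lower. Under the same distance rule 30.0% were called higher in untranslated exons, 31.6% in introns, 27.8% between genes and 31.9% in other genes. The share was 9.33% near a start, so coding exon regions had the lowest share of the classes away from starts. The median log2 difference of the 477 was 0.24, beside 0.17 over all regions, 0.37 for the 11660 intron regions and −0.04 for the 16138 regions near a start. The groups did not overlap at 151 of the 477 with MMF higher and at 16 with MMF lower, beside 29.2% and 7.66% of all regions. The remaining regions were not tested, because a list without a peak gives no level.

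The balance of these calls rests on the scaling. When each sample was centred on its own median over the 41123 regions, 50 of the 477 were called higher and 64 lower, beside 8.78% and 25.3% of all regions, and the median of the 477 became −0.11. All 50 were among the 115, and the 4 called lower stayed called. Over all 41123 regions the centring moved the median from 0.17 to −0.19. The 14 regions named next as called higher or lower kept direction and call with both scalings. Centring lowered every difference by the same amount, which was larger than the median difference of 0.17. Differences above 0 but smaller than that amount turned direction, and calls lower after centring depend in part on its size.

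The 10 regions called higher with the smallest adjusted p had log2 differences from 1.23 to 1.94. Heatr1, a factor of ribosome biogenesis that acts in the transcription and processing of ribosomal RNA, led them. Its region over exon 13 of 45 (chr13:12408433-12409039) had 26.1, 34.7 and 27.4 scaled summit reads in Control and 100.1, 79.3 and 82.8 in MMF samples, with no overlap of the groups (log2 difference 1.58 ± 0.37, 95% interval, adjusted p = 4.67e-10). The promoter of Heatr1 moved by −0.14 on the log2 scale over the same samples.

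Gnat2, the transducin alpha subunit of cone photoreceptors, had 24.7, 20.3 and 27.4 in Control and 68.2, 80.7 and 57.7 in MMF samples over exon 8 of 9 (log2 difference 1.51, SE 0.21, adjusted p = 2.88e-08). Its promoter also moved up, by 1.01. Nnt, the mitochondrial transhydrogenase that supplies NADPH, had 23.3, 21.7 and 11.3 in Control and 49.5, 60.9 and 63.6 in MMF over exon 12 of 17 (log2 difference 1.69, SE 0.24, adjusted p = 6.7e-08). It was the only CpG-rich region among the 10 named here. Spata13, a guanine nucleotide exchange factor for small GTPases, had 28.8, 39.1 and 41.9 in Control and 74.8, 83.6 and 99.1 in MMF over exon 8 of 13 (log2 difference 1.24, SE 0.18, adjusted p = 1.04e-07), while its promoter moved by −0.57.

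The 2 largest log2 differences of the 10 were at sites weak in Control. Fam149b had 12.3, 13.0 and 6.45 scaled summit reads in Control and 41.8, 38.2 and 37.0 in MMF samples (log2 difference 1.94, SE 0.28, adjusted p = 1.18e-07). Rbm6, an RNA-binding protein that acts in splicing, had 8.23, 7.24 and 9.68 in Control and 37.4, 28.3 and 28.1 in MMF (log2 difference 1.90, SE 0.29, adjusted p = 3.97e-07). The Control values of Rbm6 were 6, 5 and 6 reads, so its log2 difference rests on few reads.

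Lig3, the DNA ligase of single-strand break repair and of mitochondria, had 26.1, 28.9 and 35.5 in Control and 79.2, 59.5 and 76.9 in MMF samples (log2 difference 1.25, SE 0.19, adjusted p = 5.26e-07), with a comprehensive start 306 bp away. Utp14b, an intronless copy of Utp14a whose product acts in the processing of ribosomal RNA, had 17.8, 17.4 and 17.7 in Control and 41.8, 55.2 and 56.2 in MMF (log2 difference 1.52, SE 0.24, adjusted p = 5.99e-07). Reads shared with the parent gene could be placed at either copy, so this value is uncertain. Zmym2, a zinc finger protein of chromatin-bound repressor complexes, and Il1rap, the accessory chain of the interleukin 1 receptor, completed the 10, with means of 18.3 ± 2.38 and 30.2 ± 11.2 in Control and 48.2 ± 1.77 and 68.1 ± 10.6 in MMF (SD, n = 3 each, log2 differences 1.41 and 1.23, limma adjusted p = 3.21e-06 and 3.73e-06). At 8 of the 10 the summit lay on coding sequence, and at 9 the nearest comprehensive start was over 1 kb away. That start was still within the 5 kb of the rule at Heatr1, Gnat2, Spata13, Fam149b, Rbm6, Lig3 and Utp14b. These regions therefore miss the rule with the comprehensive annotation. Only at Nnt, Zmym2 and Il1rap did it lie more than 5 kb away.

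**Figure D3:**
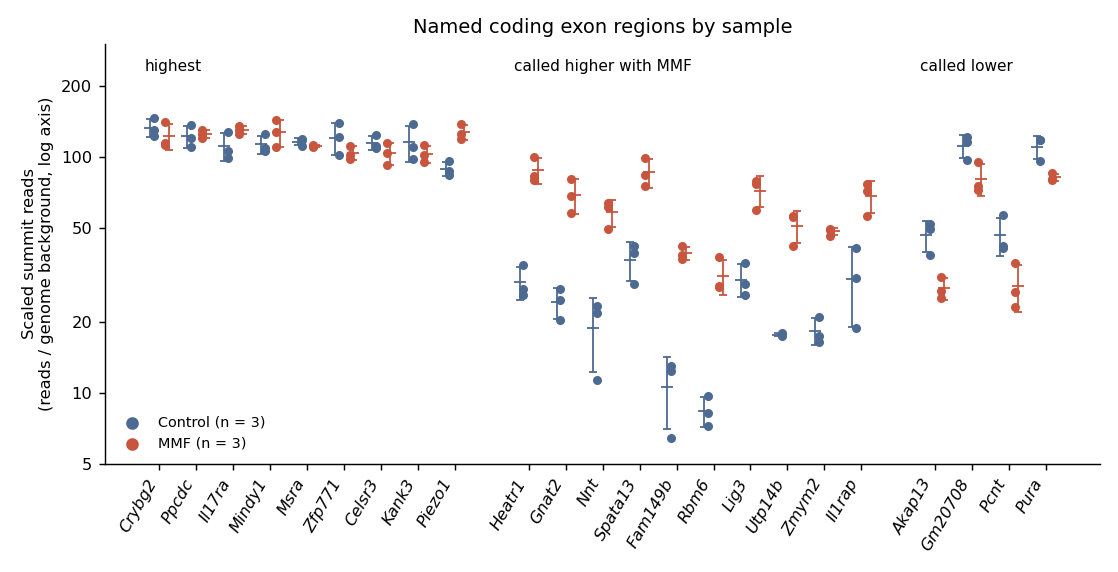
Scaled summit reads (y axis, log scale) in each sample at 9 of the 10 highest coding exon regions, the 10 called higher with the smallest adjusted p and the 4 called lower, named by gene (x axis). Points are samples (Control blue, MMF red), and bars beside them give the mean and SD (n = 3). Among the highest regions the groups overlap except at Piezo1, and at the 14 called regions on the right they do not.

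Only 4 regions were called lower. Akap13, an A-kinase anchor protein, had 38.4, 49.2 and 51.6 scaled summit reads in Control and 25.3, 26.9 and 31.1 in MMF samples over exon 5 of 38 (log2 difference −0.74, SE 0.22, adjusted p = 0.00777). Pcnt, pericentrin of the centrosome, had 41.2, 56.4 and 41.9 in Control and 23.1, 35.4 and 26.6 in MMF over exon 39 of 42 (log2 difference −0.72, SE 0.22, adjusted p = 0.0101). Gm20708, a predicted gene, fell from 111 ± 12.9 to 80.7 ± 12.3 (adjusted p = 0.00822), and Pura, which binds purine-rich single-stranded DNA, from 110 ± 12.4 to 81.7 ± 2.83 (SD, n = 3 each, adjusted p = 0.0138). The groups did not overlap at any of the 4. Starts of the comprehensive annotation lay 216 bp from the midpoint at Gm20708 and 1136 bp at Pcnt, within the 5 kb of the rule. At Akap13 and Pura the nearest lay 23713 and 6182 bp away. Without Control replicate 2, Gm20708, Pcnt and Pura missed the threshold (adjusted p = 0.0624, 0.0946 and 0.0693). So did Gm20708 without MMF replicate 3 (0.0530), Pcnt without MMF replicate 1 (0.0772) and Pura without Control replicate 3 (0.0672), while Akap13 passed it with any sample left out. The fifth by p, Rinl, had 79.6, 85.4 and 90.3 in Control and 60.5, 68.0 and 69.5 in MMF and was not called (adjusted p = 0.0629), though it was with the median-centred scaling (adjusted p = 0.00011). A start of the comprehensive annotation lay 153 bp from its midpoint. Exon 7 of Akap13 held 2 further regions, each with a peak in 1 Control and 2 MMF lists, at 13.7 to 29.6, and starts of the comprehensive annotation lay 396 and 28 bp away.

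The calls were split by CpG content. Among the 107 CpG-rich regions in all 6 lists 8 were called higher (7.48%) and 1 lower, and among the 370 CpG-poor ones 107 (28.9%) and 3. With the median-centred scaling 2 CpG-rich regions were called higher and 25 lower, and 48 and 39 CpG-poor ones. Without that centring the median log2 differences were 0.07 for CpG-rich and 0.32 for CpG-poor regions. In level, the median of CpG-rich minus CpG-poor regions on the log2 scale stood at 0.30, 0.39 and 0.36 in Control and at 0.25, 0.06 and 0.17 in MMF, so the gap was narrower in each MMF sample (difference −0.19, two-sided exact permutation p = 0.1, 0.275 adjusted over 11 features). The same split over all 41123 regions gave medians of −0.10 and 0.32. Across the 477 regions the log2 difference ran against the GC content of the window (Pearson r −0.41, Spearman rho −0.43, n = 477, a description across regions that share libraries).

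**Figure D4:**
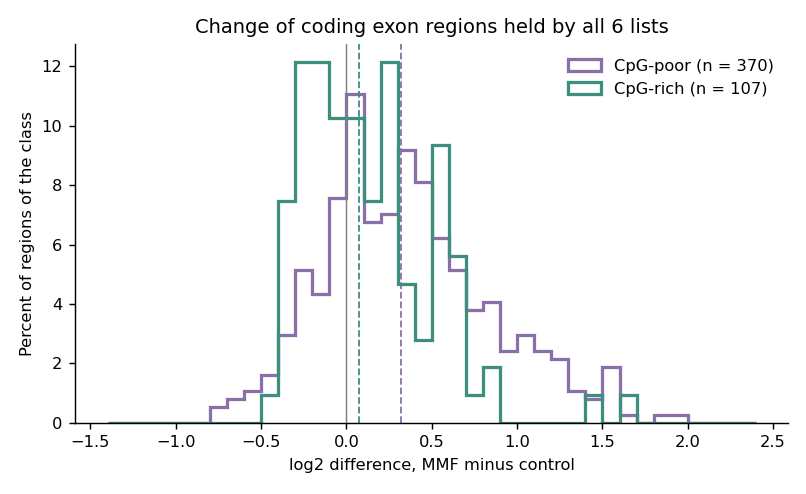
Percent of regions (y axis) by log2 difference, MMF minus Control (x axis, bins of 0.1), for the 370 CpG-poor and 107 CpG-rich coding exon regions with a peak in all 6 lists. Dashed lines mark the medians, 0.32 and 0.07, and the CpG-poor regions reach further to the right.

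On both strands of the 200 bp around the summit 8 motifs were searched: TTGCNNAA for C/EBP, GAGGAAGT for PU.1, CCGGAAGT for ELK1, AACCACA for RUNX, TGANTCA for AP-1, CCNCNCCC for KLF, CCAATNA for NF-Y and the CTCF consensus. PU.1 and ELK1 share the core GGAAGT, and no match names the factor bound. The CTCF consensus was held by 9.41% ± 1.15 of coding exon peaks and 6.95% ± 0.91 of intron peaks (SD over 6 samples), 2.46 percentage points more in exons and more in 6 of 6 samples (exact sign-flip permutation test, two-sided, p = 0.0312, 0.0357 adjusted over 8 motifs). Counted once per merged region, and not per peak, the consensus was held by 7.94% of coding exon regions and 5.96% of all regions. Windows centred on the 148354 coding exons that meet the distance rule held it in 0.443%. The size of the excess over intron peaks depended on where a region is placed, being 0.90 points when the summit in place of the midpoint had to lie in coding sequence.

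Of the other 7 motifs, 4 were less frequent in exon than in intron peaks and 2 more frequent. The 2 kinds of peak differ in base composition. Median G and C content averaged 54.9% in Control and 53.5% in MMF samples for coding exon peaks, and 49% and 48% for intron peaks. The part of base composition in the motif shares was not tested. RUNX was held by 7.20% ± 0.64 of coding exon peaks against 12.7% ± 0.25 of intron peaks, AP-1 by 13.0% ± 0.83 against 20.1% ± 0.78, C/EBP by 15.1% ± 1.44 against 16.4% ± 1.12 and NF-Y by 5.24% ± 0.64 against 6.85% ± 0.17, lower in exons in 6 of 6 samples each. ELK1 (1.53% ± 0.20 against 0.531% ± 0.02) and KLF (21.3% ± 1.498 against 19.4% ± 0.94) were more frequent in exons in 6 of 6 samples each (SD over 6 samples, adjusted sign-flip permutation p = 0.0357 for each of these 6 motifs). This excess did not extend to all regions, which include those near a start. Counted once per region, ELK1 was held by 1.19% of coding exon regions and 1.30% of all regions, and KLF by 20.2% and 24.9%. For PU.1, 9.09% ± 0.64 and 9.40% ± 0.27, the difference was smaller than the spread (adjusted sign-flip permutation p = 0.344). Windows on all coding exons held RUNX in 3.47%, AP-1 in 4.74%, C/EBP in 8.17%, PU.1 in 1.42%, ELK1 in 0.462%, KLF in 12.9% and NF-Y in 7.25%, and of the 8 motifs NF-Y alone was less frequent in coding exon peaks than in these windows, a comparison without a test.

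**Figure D5:**
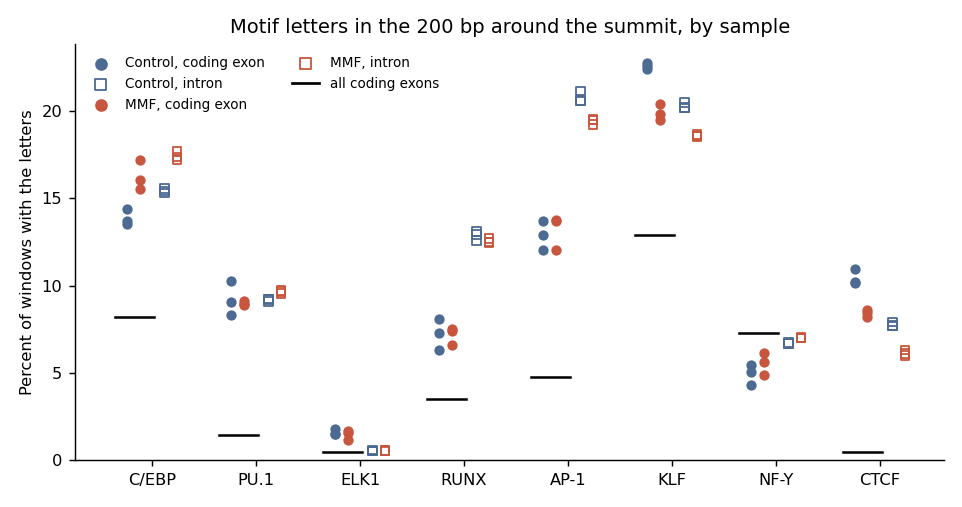
Percent of 200 bp windows (y axis) that hold the letters of each motif (x axis), for coding exon peaks (filled circles) and intron peaks (open squares) of each sample (Control blue, MMF red), with a black line for all coding exons that meet the distance rule. CTCF lies higher in coding exon than in intron peaks in every sample, and RUNX and AP-1 lie lower.

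Between the groups, coding exon peaks held the CTCF consensus in 10.96%, 10.2% and 10.1% of cases in Control and 8.595%, 8.44% and 8.17% in MMF samples, KLF in 22.6% ± 0.16 and 19.9% ± 0.48, and C/EBP in 13.9% ± 0.44 and 16.3% ± 0.87 (SD, n = 3 each). The groups did not overlap for these 3 motifs (exact permutation p = 0.1 for each, 0.267 adjusted over 8 motifs). Intron peaks showed the same directions without overlap, with CTCF in 7.69% to 7.92% in Control and 5.98% to 6.31% in MMF samples, KLF in 20.2% to 20.5% and 18.6% to 18.7%, and C/EBP in 15.3% to 15.6% and 17.2% to 17.7%.

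Of the 76 regions in all 6 lists with C/EBP letters 29 were called higher (38.2%) and none lower, against 21.4% called higher of those without them. Of the 57 with PU.1 letters 22 (38.6%) were called higher and none lower, against 22.1%. Over all 41123 regions the median log2 difference was 0.45 with and 0.12 without C/EBP letters, and 0.38 with and 0.14 without PU.1 letters. The gap in level between regions with and without the letters differed between the groups by 0.18 for each motif (exact permutation p = 0.2 for C/EBP and 0.1 for PU.1, 0.367 and 0.275 adjusted over 11 features). With RUNX letters 11 of 34 regions were called higher (32.4%) and with NF-Y letters 8 of 24 (33.3%), none lower. Without them the shares were 23.5% and 23.6%. Over all 41123 regions the median log2 differences were 0.36 with and 0.14 without RUNX letters, and 0.04 and 0.18 for NF-Y. With AP-1 letters 19 of 69 were called higher (27.5%), against 23.5% without. With ELK1 letters 2 of only 8 were (25%), against 24.1%, and with KLF letters 17 of 112 (15.2%), against 26.8%. Over all 41123 regions the medians with and without the letters were 0.28 and 0.14 for AP-1, −0.07 and 0.17 for ELK1, and −0.003 and 0.27 for KLF. Of the 48 with the CTCF consensus 6 were called higher (12.5%) and none lower, against 25.4% of those without it. The median level of regions with minus without CTCF was 0.12, 0.04 and 0 in Control and −0.23, −0.21 and −0.23 in MMF samples on the log2 scale (difference −0.28, exact permutation p = 0.1, 0.275 adjusted over 11 features). For coding exon regions in all 6 lists the median log2 difference was 0.08 with and 0.27 without the consensus, beside 0.09 and 0.17 over all 41123 regions.

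Counts were also split by where in the gene and exon a region lay. Of the 354 internal coding exon regions in all 6 lists 92 were called higher (26.0%), and of the 100 in last coding exons 18 (18%). With the summit on coding sequence 77 of 305 were called higher (25.2%), and with the summit beside it 38 of 172 (22.1%). With a comprehensive start within 1 kb 19 of 102 were called higher (18.6%), and with none within 5 kb 70 of 274 (25.5%). The median level of the regions with a start within 1 kb was higher than that of the others by 0.23 ± 0.05 in Control and 0.19 ± 0.07 in MMF samples on the log2 scale (SD, n = 3 each), and the difference between the groups was smaller than the spread (exact permutation p = 0.5). Their median log2 difference was 0.19, and that of the others 0.26. Over all 41123 regions the same split gave −0.08 and 0.32.

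Exon regions were set beside the promoters of their genes. For 320 of the 477 regions the host gene had promoter peaks in all 6 lists, and across them the 2 log2 differences had a Pearson r of 0.11 and a Spearman rho of 0.11 (n = 320 regions, which share libraries and in part genes). Of the 91 of these regions that were called higher, the promoter of 32 (35.2%) had a difference above 0, beside 119 of all 320 (37.2%). The median promoter difference over the 320 was −0.08. Among the 14 genes with 2 or more regions in all 6 lists, 12 had none called higher, 1 had some and 1 had all.

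Over all 21728 protein-coding gene symbols 6.22% held a region, and the gene lists are read beside that share, with no test. Among 26 MLL fusion and partner genes, 4 held 6 regions, 2 of them in all 6 lists. Aff4, a scaffold of the super elongation complex, had 10.97, 11.6 and 11.3 scaled summit reads in Control and 19.8, 18.4 and 19.2 in MMF samples and was called higher (log2 difference 0.76, SE 0.29, adjusted p = 0.0431), which the median-centred scaling did not keep (adjusted p = 0.28). The region over exon 11 of 36 of Kmt2a had 9.60, 13.0 and 16.1 in Control and 13.2, 12.7 and 19.2 in MMF, with overlapping groups (adjusted p = 0.631). Ep300, the histone acetyltransferase p300, held a gained region at 15.4, 24.1 and 14.8. Among 23 MLL-AF9 target genes, 2 held 3 regions. Jmjd1c, a Jumonji-domain protein, had 30.2, 20.3 and 14.5 in Control and 45.1, 48.2 and 41.4 in MMF over exon 10 of 26 (log2 difference 1.11, SE 0.24, adjusted p = 0.000249). Lmo2, an adaptor of hematopoietic transcription factor complexes, held a region in 5 of the 6 lists at 12.9 to 26.6.

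Of 50 annotated myeloid regulators and differentiation genes only Mmp9, the matrix metalloprotease of neutrophils, held a region, at 33.6 ± 6.53 in Control and 40.4 ± 10.2 in MMF samples (SD, n = 3 each, adjusted p = 0.446), and of 26 genes of other lineages none did. Among 22 genes of guanine nucleotide and purine metabolism and RNA polymerase I, Impdh1, a target of MMF itself, held a region over exon 7 of 14 in 2 Control lists (17.8 and 15.9) and 1 MMF list (9.92). Polr1a, the largest subunit of RNA polymerase I, held a region over exon 18 of 34 at 17.8, 17.4 and 8.06 in Control and 35.2, 43.9 and 44.4 in MMF, called higher (log2 difference 1.59, SE 0.27, adjusted p = 4.19e-06).

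Zinc finger genes, taken by the symbol starts Zfp, Zbtb, Zscan and Zkscan, numbered 468, of which 23 held 24 regions and 5 of these regions were in all 6 lists. Zfp57, a repressor that keeps imprinted loci methylated, was called higher at 26.1, 13.0 and 16.1 in Control and 40.7, 52.4 and 48.8 in MMF samples (log2 difference 1.42, SE 0.25, adjusted p = 6.95e-06). The other 4, in Zfp771, Zfp219, Zfp697 and Zbtb8a, were not called, with log2 differences from −0.21 to 0.33, and with the median-centred scaling Zfp771 was called lower (adjusted p = 0.000414). The median of the 5 was −0.01, beside 0.24 over the 477 regions.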

How the data were processed

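ATAC-seq libraries of 3 Control and 3 MMF samples were used. The authors trimmed, checked and mapped the reads to mm10 and called peaks on each sample (FastQC, Trim Galore, Bowtie2 and MACS2, per the submitters' processing notes, with versions and options not given in the sources used here). The deposited lists give for every peak a fold enrichment, a ratio, and −log10 p and −log10 q values. No column holds counts, so no count model was run. Reads over the summit and background were solved from the fold enrichment and the Poisson p, and whole reads came out for 100% of peaks (relative error under 0.001). Lists were used on chromosomes 1 to 19 and X, which left out 0.362% to 0.447% of peaks, and no 2 lists were copies.

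Peaks overlapping by at least 1 bp were merged. A region's value in a sample is its highest peak's scaled summit reads. For regions in all 6 lists, log2 values were fitted by limma (3.58.1, R 4.3.3, with trend and no block) at an adjusted p of 0.05. In simulated data for this comparison with 200 of 41123 regions shifted, 0, 72 and 145 were called at log2 shifts of 0.5, 1 and 1.5. In the data themselves 8956 regions were called higher and 1267 lower, which makes the adjusted threshold less strict. The simulated counts therefore do not give the sensitivity of the main fit. Per-sample summaries were compared by exact permutation and sign-flip tests. Scaling by the genome-wide background keeps any general difference in the share of reads in peaks between libraries, which cannot be told apart from a general change with MMF. A peak list gives no level where no peak was called. Python 3.11.15, numpy 2.4.6, pandas 2.3.3 and scipy 1.17.1 were used.

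Members, lists and tests were chosen with earlier results of these data known. Named regions were the 10 highest, up to 10 called in each direction by adjusted p (5 by p where fewer were called), 5 gained and 5 lost of highest level, the 5 genes with most regions (ties by name, Akap12 and Akap13 among those with 3) and those in the fixed gene lists. A few named items are not reported here.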

Additional observations from a re-analysis of the deposited data

How the results depend on the processing

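The count of regions called higher, 115, moved by over 1.5 times with rank normal scores (50 higher, 1 lower), with the median-centred scaling (50 higher, 64 lower) and with the comprehensive annotation, which was chosen after seeing the data (71 higher, 2 lower of 276 tested). The 4 called lower became 2 without the variance trend and 8 with outermost gene starts only. Leaving out 1 sample gave 79 to 114 called higher and 2 to 6 lower. The replicate numbers did not pair the samples, since same-numbered samples had correlations of deviations from −0.0027 to 0.0036, and the replicate block gave 114 higher and 4 lower. For the share of peaks in coding exons the replicate block left the difference at −0.0053 points, and it changed the call of none of the 14 named regions called higher or lower. It was not run for the other results. Of 10 named regions called higher, all 90 alternative fits kept direction and call, and of those called lower 28 of 36 did and 8 missed the threshold.

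Gained regions numbered 24 at equal list length and 51 with the comprehensive annotation, and 106 to 119 with 1 sample left out. The lost region became 15 at equal list length, 4 when peaks had to cover 50% of the bases of a region and 2 to 5 with 1 sample left out. The difference in the share of peaks turned to 0.0042 points at a q of 0.01, 0.0193 when placed by the summit and 0.0075 with the comprehensive annotation, and ran from −0.0214 to 0.0161 with 1 sample left out. The exon minus intron median was 0.0265 by the mean (sign-flip permutation p = 0.0312), turned to −0.0017 when placed by the summit and to −0.0355 by the local background, and was 0.06 to 0.11 with 1 sample left out. Density ratios of 0.44 to 0.49 and CTCF differences of 2.22 to 2.89 points with 1 sample left out could not pass the threshold, since 5 samples allow no p under 0.0625. The cause of each change was not tested, apart from the smaller numbers of samples, peaks and regions that the alternatives use. Low read numbers at the summit limit the weak regions, and regions absent from a list have no level.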
